A study of Mus musculus with 23 samples.

Results

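The 32 genes described here belong to the piRNA pathway and to the machinery that silences transposons in male germ cells. They were chosen by symbol, as known parts of the pathway, out of 28861 genes in the deposited count table, and all 32 were found there and passed the filter on low counts. They comprise 3 PIWI proteins, 9 Tudor domain proteins, 12 factors of piRNA biogenesis and processing, 2 factors of transcription and arginine methylation, and 6 genes of transposon silencing and DNA methylation.

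PIWI proteins bind small RNAs called piRNAs and use them as guides to cut transposon RNA in the cytoplasm or to direct DNA methylation of transposons in the nucleus. Precursor transcripts are cut at the outer mitochondrial membrane, trimmed and methylated at the 3' end, while Tudor proteins bind methylated arginines of PIWI proteins and hold the machinery together in germ cell granules. In adult testis most piRNAs are made in pachytene spermatocytes and round spermatids, whereas the nuclear branch acts mainly in fetal germ cells.

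PolyA RNA was sequenced from the testis of WT male mice of 3 inbred strains: NZO/HlLtJ, which is prone to obesity and diabetes, CAST/EiJ, which is wild-derived, and C57BL/6J, on which the mouse reference genome is based. From 6 weeks of age the mice ate either a high fat, high sugar food with 44% fat or a control food with 10% fat, both containing fiber, and testes were taken at 16 weeks. There were 4 NZO/HlLtJ libraries on 44% fat and 4 on 10% fat, 4 and 3 of CAST/EiJ, and 4 and 4 of C57BL/6J. The study asked how strain and diet combine in their effect on gene expression. The labels give each library a title of its own but name no animal, so p-values measure the spread between these samples.

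Library totals ran from 21.9 to 78.7 M (1 M is 1000000) estimated counts with a median of 35.1 M. Both leading principal components, with 57.7% and 22.4% of the variance, separated strains. C57BL/6J 10% fat replicate 4, NZO/HlLtJ 10% fat replicate 4, NZO/HlLtJ 44% fat replicate 3 and CAST/EiJ 44% fat replicate 2 stood apart from their groups, the last with 124 CPM (counts per 1000000 after TMM scaling) summed over 3 epididymis genes, against a group median of 4.06 CPM. Their removal, all at once, ended 1 call among these genes, that of Fkbp6 between CAST/EiJ and C57BL/6J, and added 5. The added calls were Piwil2, Rnf17 and Mybl1 between NZO/HlLtJ and CAST/EiJ, Ddx4 between CAST/EiJ and C57BL/6J (0.10 on the log2 scale, adjusted p 0.0286, edgeR) and Gtsf1 between NZO/HlLtJ and C57BL/6J (-0.08, adjusted p 0.0463). Markers of pachytene spermatocytes, round spermatids, elongating spermatids, spermatogonia and Sertoli cells were all above 0 in every strain.

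Across all libraries the transcripts differed widely in abundance. Per kilobase of merged exons, Mael, a protein of germ cell granules needed for transposon silencing, was the most abundant with 568 CPM per kb. Ddx4, the germ cell RNA helicase also called mouse vasa, followed with 205, then Tdrd6 with 182, Gtsf1 with 155 and Piwil1 with 101 CPM per kb. At the low end were Dnmt3a with 1.56, Dnmt3l with 1.56, Morc1 with 1.11 and Piwil4 with 0.165 CPM per kb. The lowest ranks thus held DNA methylation factors, Morc1 and Piwil4, the nuclear PIWI protein. For Dnmt3a the level was divided by 16642 bases of merged exons. Piwil4 was also the noisiest between replicates, with a median coefficient of variation within groups of 18.8%, while Tdrd1 was the steadiest at 1.84%.

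**Figure D1:**
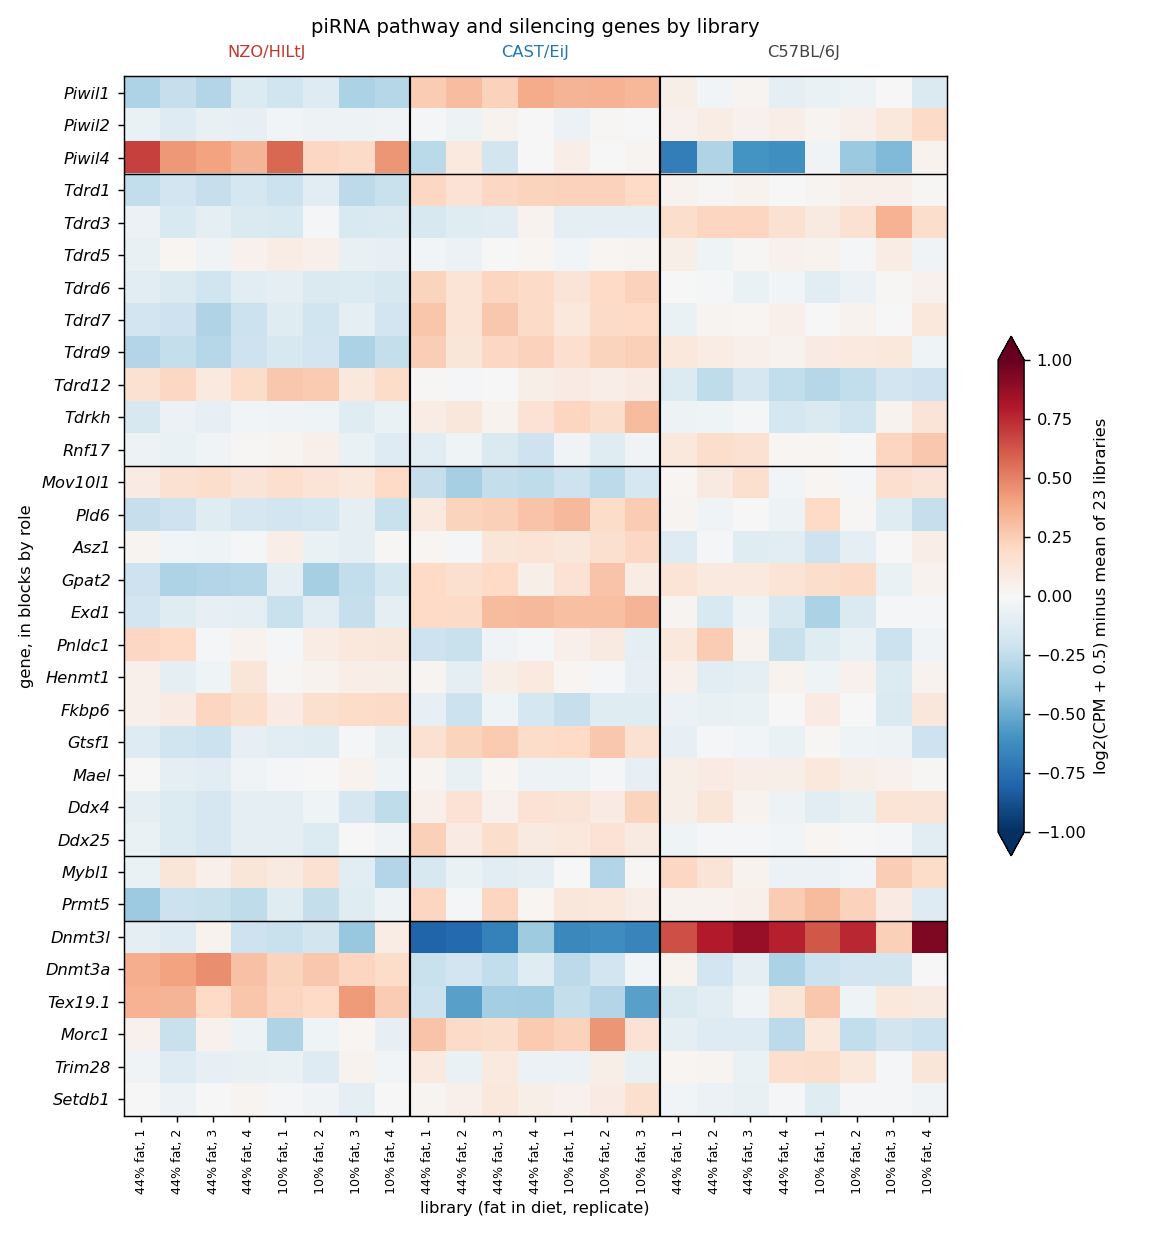
Level of each gene in each library as log2(CPM + 0.5) minus its mean over 23 libraries, with genes in blocks by role and libraries by strain and diet. Colour changes mostly at the strain borders: Dnmt3l is high in all 8 C57BL/6J libraries and low in all 7 CAST/EiJ libraries, and Piwil4 is high in NZO/HlLtJ.

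Strain differences were frequent but mostly small. Between NZO/HlLtJ and C57BL/6J, 5 of the 32 genes were higher and 16 lower in NZO/HlLtJ at an adjusted p under 0.05 (edgeR quasi-likelihood test, Benjamini-Hochberg over 22873 genes). In all, 65.6% of the genes were called, against 59.1% of all genes tested, of which 30.4% were called higher and 28.7% lower. Between CAST/EiJ and C57BL/6J, 15 were higher and 9 lower in CAST/EiJ, against 66.8% of all genes called in either direction, 32.7% higher and 34.1% lower. Between NZO/HlLtJ and CAST/EiJ, 7 were higher and 16 lower in NZO/HlLtJ, against 72.1% of all genes called in either direction, 39.6% higher and 32.5% lower. The 3 comparisons share libraries, so their counts are not independent of each other.

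The sizes of these changes were modest. The median log2 fold change over the 32 genes was -0.07 for NZO/HlLtJ over C57BL/6J, 0.07 for CAST/EiJ over C57BL/6J and -0.08 for NZO/HlLtJ over CAST/EiJ, against 0.01, -0.00 and 0.06 over all genes. Without sign, the medians were 0.15, 0.18 and 0.30, against 0.27, 0.36 and 0.42 over all genes. A change of at least 1.5-fold was called in 2, 2 and 3 of the 32 genes, against 21.0%, 33.7% and 36.4% of all genes. Of the 7600 genes with a mean of at least 20 CPM, which include 27 of the 32, the medians without sign were 0.14, 0.17 and 0.25 for the piRNA genes and 0.16, 0.18 and 0.23 for all such genes. Of the 27, 18, 20 and 19 were called, against 69.7%, 69.9% and 77.8% of the genes at that level, and 0 were both called and changed at least 1.5-fold in any of the 3 comparisons, against 5.96%, 11.6% and 14.3%.

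Cell type markers also differed between strains, to be read beside the shares of all genes called. For NZO/HlLtJ against C57BL/6J, 30.4% of all genes were called higher and 28.7% lower. These shares were 39.6% and 32.5% for NZO/HlLtJ against CAST/EiJ, and 32.7% and 34.1% for CAST/EiJ against C57BL/6J. In NZO/HlLtJ against C57BL/6J, 6 of 7 pachytene spermatocyte markers and 7 of 8 round spermatid markers fell and none rose, with summed pachytene levels of 5649 to 6562 CPM in NZO/HlLtJ and 6377 to 7163 CPM in C57BL/6J. Over the same libraries, 5 of 7 markers of undifferentiated spermatogonia rose and 1 fell, with sums of 96.3 to 118 CPM in NZO/HlLtJ and 70.5 to 77.2 CPM in C57BL/6J. In NZO/HlLtJ against CAST/EiJ, 5 of 7 pachytene markers fell and 1 rose, CAST/EiJ summing to 6944 to 7495 CPM. In CAST/EiJ against C57BL/6J, 3 pachytene markers rose and 2 fell, and 2 round spermatid markers rose and 3 fell. Of the markers of undifferentiated spermatogonia, 4 rose and 0 fell. Those of differentiating spermatogonia summed to 478 to 522 CPM in CAST/EiJ, 532 to 554 CPM in C57BL/6J and 561 to 602 CPM in NZO/HlLtJ. Those of leptotene and zygotene spermatocytes overlapped between strains, with sums of 951 to 1118, 867 to 1111 and 827 to 1027 CPM in that order.

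Markers of somatic cells differed too. The 7 Leydig cell markers summed to 1071 to 1564 CPM in NZO/HlLtJ, 483 to 669 CPM in CAST/EiJ and 532 to 793 CPM in C57BL/6J, with 5 higher and 1 lower in NZO/HlLtJ than in C57BL/6J. Sums over 8 Sertoli cell markers were 722 to 997 CPM in NZO/HlLtJ, 659 to 707 CPM in CAST/EiJ and 638 to 704 CPM in C57BL/6J, with 7 higher and 0 lower in NZO/HlLtJ than in C57BL/6J. Those over 5 peritubular myoid markers were 364 to 387 CPM in NZO/HlLtJ, 203 to 233 CPM in CAST/EiJ and 361 to 390 CPM in C57BL/6J, and all 5 were lower in CAST/EiJ than in C57BL/6J. The shares of all genes given for the germ cell markers apply here too. No marker of these lists was at 0. In whole testis, fewer cells of a type and less RNA per cell cannot be told apart, and the part of cell makeup in the differences below was not tested.

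**Figure D2:**
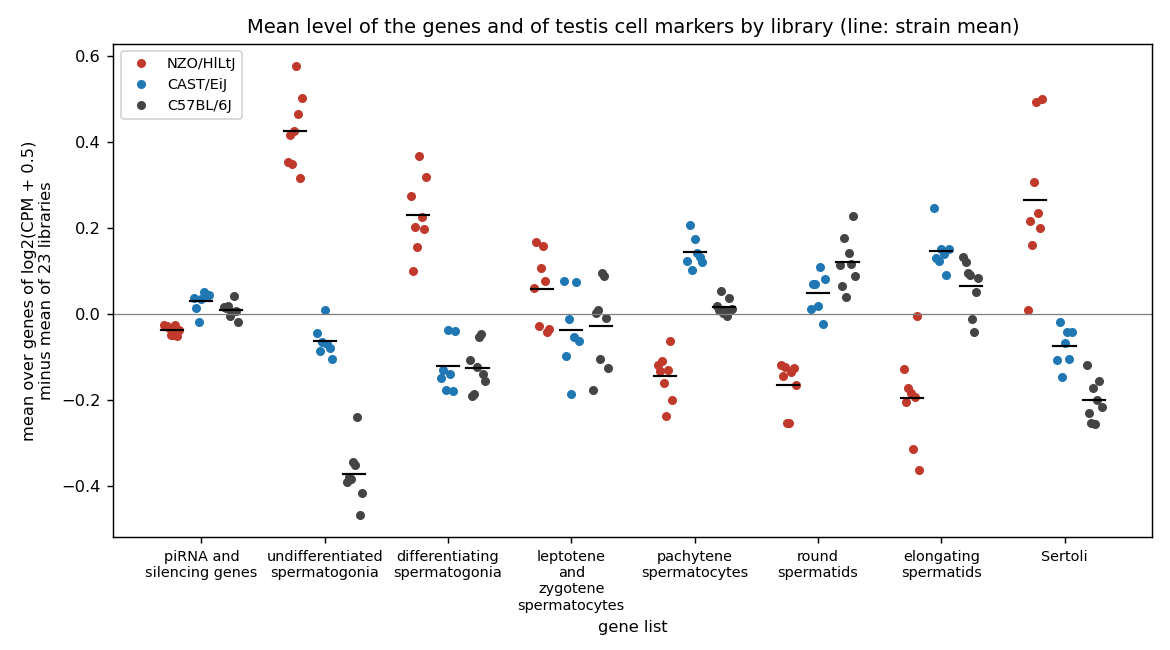
Mean over genes of log2(CPM + 0.5), minus the mean of 23 libraries, for the piRNA and silencing genes and for marker lists of testis cell types; each point is a library and the line is the strain mean. The mean of the piRNA genes spreads less between strains than those of the spermatogonial, pachytene and spermatid markers. It is taken over more genes, and rises and falls cancel in it, so it does not show the spread of single genes. NZO/HlLtJ lies lowest for the piRNA genes and for pachytene and spermatid markers. For leptotene and zygotene markers it has the highest mean, 0.06 ± 0.09 (SD), against -0.04 ± 0.09 in CAST/EiJ and -0.03 ± 0.10 in C57BL/6J.

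In 7 genes all pairs of strains were called and the order was CAST/EiJ above C57BL/6J above NZO/HlLtJ: Piwil1, Tdrd1, Tdrd6, Tdrd7, Tdrd9, Pld6 and Ddx25. Of all genes tested, 7.31% had that order with all pairs called. The call between NZO/HlLtJ and C57BL/6J was lost under 17 of 31 other settings for Ddx25, and with 10% fat libraries alone for Tdrd6 (adjusted p 0.0832, edgeR) and Pld6 (adjusted p 0.131). The promoter stretches of 4 of them are shown because these genes share that order; each is the window of 250 bases before a RefSeq transcript start (GRCm38.p6), the one with most motifs where a gene has several, shortened to end before any exon of the gene in GENCODE M21, and all lie on the plus strand. The Piwil1 stretch lies inside the annotated gene, before a later transcript start. Capitals mark MYB-type core letters, CAACTG as well as CAACGG, or else TAACTG as well as TAACGG, on either strand, the kind of motif bound by MYBL1, the master activator of pachytene piRNA genes; CAACTG and its reverse also match the E-box CANNTG.
Piwil1, chr5:128735996-128736173: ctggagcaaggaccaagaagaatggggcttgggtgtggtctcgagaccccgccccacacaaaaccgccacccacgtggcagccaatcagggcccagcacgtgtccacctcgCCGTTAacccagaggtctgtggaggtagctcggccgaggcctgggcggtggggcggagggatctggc
Tdrd1, chr19:56825959-56826208: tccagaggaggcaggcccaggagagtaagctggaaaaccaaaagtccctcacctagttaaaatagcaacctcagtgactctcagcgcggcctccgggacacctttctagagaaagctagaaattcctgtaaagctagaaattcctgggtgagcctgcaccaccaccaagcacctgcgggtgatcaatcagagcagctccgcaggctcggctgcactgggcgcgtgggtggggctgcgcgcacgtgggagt
Tdrd7, chr4:45965085-45965333: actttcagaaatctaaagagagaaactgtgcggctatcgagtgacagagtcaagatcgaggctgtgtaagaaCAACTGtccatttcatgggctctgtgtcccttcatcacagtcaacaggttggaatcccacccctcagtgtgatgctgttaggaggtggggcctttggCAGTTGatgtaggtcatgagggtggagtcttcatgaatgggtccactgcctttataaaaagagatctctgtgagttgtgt
Tdrd9, chr12:111971309-111971558: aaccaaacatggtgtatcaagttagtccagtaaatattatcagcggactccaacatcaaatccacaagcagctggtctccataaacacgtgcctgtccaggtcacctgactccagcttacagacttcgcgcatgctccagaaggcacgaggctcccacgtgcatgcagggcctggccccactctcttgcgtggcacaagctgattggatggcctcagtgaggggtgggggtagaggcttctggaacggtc
The Tdrd7 stretch held 2 such motifs, 178 and 81 bases before the RefSeq start, and the Piwil1 stretch held 1, at 139 bases; the unshortened Piwil1 window held another, at 73 bases. Those of Tdrd1 and Tdrd9 held 0. The other windows of Tdrd7 held 0 and 1, and those of Tdrd1 0 each. Pld6 had 2 windows with 1 and 0, Ddx25 had 1 with 0, and Tdrd6 was not matched. Across windows of 250 bases, 10 of 38 windows of the piRNA genes (26.3%) and 23.7% of 32851 windows of all genes held at least 1, so the share in these genes is near that of all genes. RefSeq windows were matched for 26 of the 32 genes.

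The 3 PIWI genes did not move together. Piwil1 (ENSMUSG00000029423, chr5:128702524-128755474), whose product binds pachytene piRNAs, had a lowest, median and highest level of 348, 363 and 396 CPM in NZO/HlLtJ, 508, 547 and 562 CPM in CAST/EiJ, and 393, 422 and 452 CPM in C57BL/6J. CAST/EiJ stood above every library of both other strains, whereas NZO/HlLtJ and C57BL/6J overlapped at their edges. The log2 fold change was -0.55 (SE 0.03, adjusted p 2.03e-14, edgeR) for NZO/HlLtJ over CAST/EiJ and 0.35 (SE 0.03, adjusted p 4.43e-10) for CAST/EiJ over C57BL/6J. For NZO/HlLtJ over C57BL/6J it was -0.20 (SE 0.03, adjusted p 7.14e-06).

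Piwil2, whose product cuts transposon RNA in the cytoplasm, differed less: its lowest, median and highest levels were 217, 228 and 233 CPM in NZO/HlLtJ, 228, 237 and 243 CPM in CAST/EiJ, and 241, 247 and 271 CPM in C57BL/6J. NZO/HlLtJ fell below C57BL/6J by 0.14 on the log2 scale (adjusted p 4.85e-05, edgeR) with no overlap, and CAST/EiJ by 0.08 (adjusted p 0.00897). NZO/HlLtJ against CAST/EiJ did not pass (adjusted p 0.071, edgeR) but did without the libraries that stood apart (-0.07, adjusted p 0.0326). That pair also passed with edgeR on DESeq2 size factors (adjusted p 0.00765). It passed with DESeq2 (adjusted p 0.00141) and with limma on the deposited log2 values (adjusted p 0.00764) too. The fall in CAST/EiJ against C57BL/6J was lost with 44% fat libraries alone (adjusted p 0.0788, edgeR) and with 10% fat libraries alone (adjusted p 0.089).

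Piwil4 (chr9:14696230-14740733), the PIWI protein of nuclear transposon silencing, went the other way. Its lowest, median and highest levels were 1.03, 1.29 and 1.65 CPM in NZO/HlLtJ, 0.61, 0.846 and 0.931 CPM in CAST/EiJ, and 0.329, 0.512 and 0.873 CPM in C57BL/6J. Every NZO/HlLtJ library exceeded every library of the other strains, while CAST/EiJ and C57BL/6J overlapped. The log2 fold change was 1.28 (SE 0.17, adjusted p 2.13e-07, edgeR) for NZO/HlLtJ over C57BL/6J, the one rise of at least 2-fold among the 32 genes, against 10.8% of all genes called at that size in either direction. It was 0.67 (SE 0.16, adjusted p 0.000737) for NZO/HlLtJ over CAST/EiJ and 0.62 (SE 0.18, adjusted p 0.00414) for CAST/EiJ over C57BL/6J. With libraries on 10% fat alone these became 0.87 (adjusted p 0.00917), 0.49 (adjusted p 0.114) and 0.38 (adjusted p 0.266), and with those on 44% fat alone 1.70, 0.86 and 0.84. Undifferentiated spermatogonial markers had the same strain order. Their sums were 96.3 to 118 CPM in NZO/HlLtJ, 81.5 to 86.6 CPM in CAST/EiJ and 70.5 to 77.2 CPM in C57BL/6J. This order was not particular to them, with mean sums of 824, 681 and 669 CPM for Sertoli markers. For macrophage markers the mean sums were 36.9, 28.6 and 25.9 CPM. Differentiating spermatogonial markers had another order by sum, with mean sums of 573, 502 and 540 CPM in the same strains. By the mean of log2 values used in the plot of marker lists, they stood at 0.231, -0.121 and -0.125. By that measure NZO/HlLtJ was highest and the other strains were nearly level, so the order depends on the summary. The part of any of these cell types in the Piwil4 difference was not tested.

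**Figure D3:**
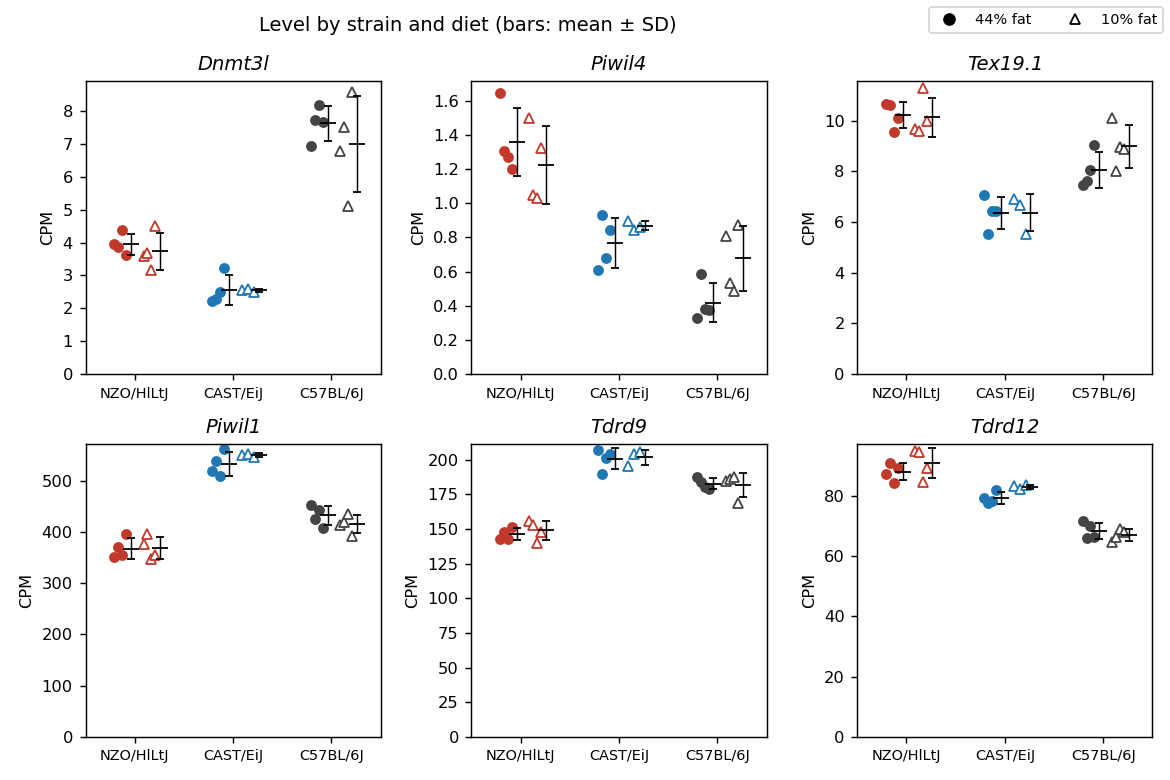
CPM of 6 genes in each library by strain, with 44% fat as filled circles and 10% fat as open triangles, and bars for the mean ± SD of each diet group. Piwil1 and Tdrd9 run CAST/EiJ, C57BL/6J, NZO/HlLtJ from high to low; Tdrd12 and Piwil4 are highest in NZO/HlLtJ; Dnmt3l is highest in C57BL/6J, with 5.11 to 8.59 CPM.

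Of the 9 Tudor genes, NZO/HlLtJ had 1 higher and 6 lower than C57BL/6J, CAST/EiJ had 6 higher and 2 lower than C57BL/6J, and NZO/HlLtJ had 1 higher and 5 lower than CAST/EiJ. The called shares of all genes in the same 3 comparisons were 59.1%, 66.8% and 72.1%. Tdrd9 (chr12:111971559-112068854), a helicase that works with PIWIL4, had 140, 148 and 156 CPM as lowest, median and highest in NZO/HlLtJ, 190, 204 and 207 in CAST/EiJ, and 169, 184 and 188 in C57BL/6J. The strains did not overlap, and the lowest C57BL/6J value came from 10% fat replicate 4, a library that stood apart. Its log2 fold change was -0.45 (SE 0.03, adjusted p 3.18e-13, edgeR) for NZO/HlLtJ over CAST/EiJ and -0.31 (SE 0.03, adjusted p 1.15e-09) for NZO/HlLtJ over C57BL/6J.

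Tdrd1, which binds PIWIL2 in germ granules, averaged 209 ± 6.95 CPM in NZO/HlLtJ, 279 ± 5.68 in CAST/EiJ and 246 ± 3.26 in C57BL/6J (mean ± SD here and below, n = 8, 7 and 8), also with no overlap. NZO/HlLtJ fell below CAST/EiJ by 0.42 (adjusted p 3.51e-14, edgeR) on the log2 scale. Tdrd7, a chromatoid body component, averaged 328 ± 14.6 CPM in NZO/HlLtJ, 428 ± 18.6 in CAST/EiJ and 379 ± 12.6 in C57BL/6J, and its strains did not overlap. Tdrd6, another chromatoid body protein, averaged 1164 ± 28.4 CPM in NZO/HlLtJ, 1456 ± 40.5 in CAST/EiJ and 1253 ± 41.4 in C57BL/6J and overlapped between NZO/HlLtJ and C57BL/6J. Across Tdrd1, Tdrd6, Tdrd7 and Tdrd9 the log2 fold change of NZO/HlLtJ over CAST/EiJ ran from -0.45 to -0.32.

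Tdrd12, a helicase of secondary piRNA production, was the Tudor gene highest in NZO/HlLtJ with all pairs called. It had 84.3, 89.2 and 94.8 CPM as lowest, median and highest in NZO/HlLtJ, 77.5, 81.8 and 83.4 in CAST/EiJ, and 64.5, 67.2 and 71.5 in C57BL/6J. The strains did not overlap, and NZO/HlLtJ rose over C57BL/6J by 0.40 (SE 0.03, adjusted p 7.4e-12, edgeR) on the log2 scale. The call for NZO/HlLtJ over CAST/EiJ was lost with 10% fat libraries alone (0.13, adjusted p 0.0562, edgeR). Tdrd3, which reads methylated arginines on histones, averaged 43.7 ± 1.61 CPM in NZO/HlLtJ, 44.5 ± 1.94 in CAST/EiJ and 54.1 ± 2.98 in C57BL/6J. It was thus lower in both other strains than in C57BL/6J, with log2 fold changes of -0.31 for NZO/HlLtJ (adjusted p 6.5e-08) and -0.28 for CAST/EiJ (adjusted p 3.86e-07).

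Rnf17, which restrains piRNA amplification in meiotic cells, had its highest mean in C57BL/6J too, with 241 ± 9.85 CPM in NZO/HlLtJ, 229.7 ± 10.6 in CAST/EiJ and 268 ± 18.4 in C57BL/6J. It did not pass between NZO/HlLtJ and CAST/EiJ (adjusted p 0.154, edgeR) but did without the libraries that stood apart (0.09, adjusted p 0.031). Tdrd5, needed for pachytene piRNA production, averaged 123 CPM in NZO/HlLtJ, 123 in CAST/EiJ and 125 in C57BL/6J and passed in no pair of strains. Tdrkh, the mitochondrial scaffold of piRNA trimming, averaged 56.4 ± 1.78 CPM in NZO/HlLtJ, 66.2 ± 4.37 in CAST/EiJ and 57.1 ± 4.45 in C57BL/6J, and fell by 0.24 in NZO/HlLtJ against CAST/EiJ (adjusted p 1.05e-05, edgeR). Of its exon bases 36.7% overlap Oaz3, a spermatid gene on the opposite strand, which averaged 970.2 CPM in NZO/HlLtJ, 1251 in CAST/EiJ and 1162 in C57BL/6J. The sources used here do not say whether counting used strand, and the Tdrkh values are uncertain for that reason.

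Among the 12 biogenesis and processing genes, NZO/HlLtJ had 1 higher and 5 lower than C57BL/6J, CAST/EiJ had 5 higher and 3 lower than C57BL/6J, and NZO/HlLtJ had 2 higher and 7 lower than CAST/EiJ, to be read against the same 59.1%, 66.8% and 72.1% of all genes called. Gpat2 (chr2:127425199-127436092), a mitochondrial acyltransferase that binds PIWIL2, had 36.3, 38.0 and 43.0 CPM in NZO/HlLtJ, 47.6, 51.3 and 55.9 in CAST/EiJ, and 43.7, 49.7 and 52.5 in C57BL/6J as lowest, median and highest. NZO/HlLtJ lay below every library of the other strains, with a log2 fold change of -0.35 (SE 0.04, adjusted p 6.49e-08, edgeR) over C57BL/6J and -0.41 (SE 0.04, adjusted p 3.01e-09) over CAST/EiJ.

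Exd1, a partner of TDRD12, averaged 25.0 ± 1.10 CPM in NZO/HlLtJ, 33.7 ± 1.44 in CAST/EiJ and 25.7 ± 1.96 in C57BL/6J, and was higher in CAST/EiJ than in C57BL/6J by 0.39 (adjusted p 1.59e-08, edgeR). Pld6, the mitochondrial nuclease that cuts precursors, averaged 34.2 ± 1.16 CPM in NZO/HlLtJ, 45.5 ± 2.29 in CAST/EiJ and 38.1 ± 3.38 in C57BL/6J, while Gtsf1, which stimulates cutting by PIWI proteins, averaged 197 ± 8.81 CPM in NZO/HlLtJ, 247 ± 7.97 in CAST/EiJ and 205 ± 8.89 in C57BL/6J. Both were highest in CAST/EiJ, with falls in NZO/HlLtJ against CAST/EiJ of 0.41 for Pld6 and 0.33 for Gtsf1 on the log2 scale. Asz1, a mitochondrial scaffold, was likewise highest in CAST/EiJ, by 0.19 over C57BL/6J (adjusted p 0.000352), and NZO/HlLtJ fell by 0.13 against CAST/EiJ (adjusted p 0.00813), a difference of -0.07 (adjusted p 0.278) with 44% fat libraries alone.

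Mov10l1 (chr15:88982909-89055152), the helicase that hands precursor RNA to processing, ran against Gpat2, Exd1 and Pld6. It had 111, 116 and 121 CPM as lowest, median and highest in NZO/HlLtJ, 83.5, 89.1 and 93.1 in CAST/EiJ, and 103, 109 and 118 in C57BL/6J. CAST/EiJ lay below all other libraries, by 0.31 against C57BL/6J (adjusted p 6.19e-09, edgeR), and NZO/HlLtJ stood above CAST/EiJ by 0.38 (adjusted p 6.6e-11). Fkbp6, a chaperone partner in piRNA production, had the same low place in CAST/EiJ, with means of 37.6 CPM in NZO/HlLtJ, 30.7 in CAST/EiJ and 33.5 in C57BL/6J. Its fall of 0.12 in CAST/EiJ against C57BL/6J (adjusted p 0.0118) became 0.10 (adjusted p 0.055) without the libraries that stood apart. With 44% fat libraries alone the log2 fold change was -0.09 (adjusted p 0.182, edgeR).

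Mael, the most abundant transcript per kilobase, moved little, and Ddx4, the next, moved more. Mael averaged 962 ± 33.2 CPM in NZO/HlLtJ, 963 ± 30.6 in CAST/EiJ and 1027 ± 18.5 in C57BL/6J, so both other strains lay 0.09 below C57BL/6J on the log2 scale (adjusted p 0.00202 and 0.00219, edgeR). With 10% fat libraries alone both calls were lost, at -0.06 for NZO/HlLtJ (adjusted p 0.257, edgeR) and -0.10 for CAST/EiJ (adjusted p 0.0645). Ddx4 averaged 562 ± 24.3 CPM in NZO/HlLtJ, 668 ± 29.6 in CAST/EiJ and 630.0 ± 43.4 in C57BL/6J, with a fall of 0.25 in NZO/HlLtJ against CAST/EiJ (adjusted p 2.1e-06). Ddx25, a helicase of spermatid RNA storage, averaged 436 CPM in NZO/HlLtJ, 509 in CAST/EiJ and 457 in C57BL/6J, and its fall of 0.07 in NZO/HlLtJ against C57BL/6J (adjusted p 0.0456) was lost under 17 of 31 other settings. Pnldc1, the trimming enzyme, averaged 6.95 CPM in NZO/HlLtJ, 6.23 in CAST/EiJ and 6.38 in C57BL/6J and passed in no pair of strains. Neither did Henmt1, the 3' end methyltransferase, at 38.4 CPM in NZO/HlLtJ, 37.8 in CAST/EiJ and 37.0 in C57BL/6J.

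**Figure D4:**
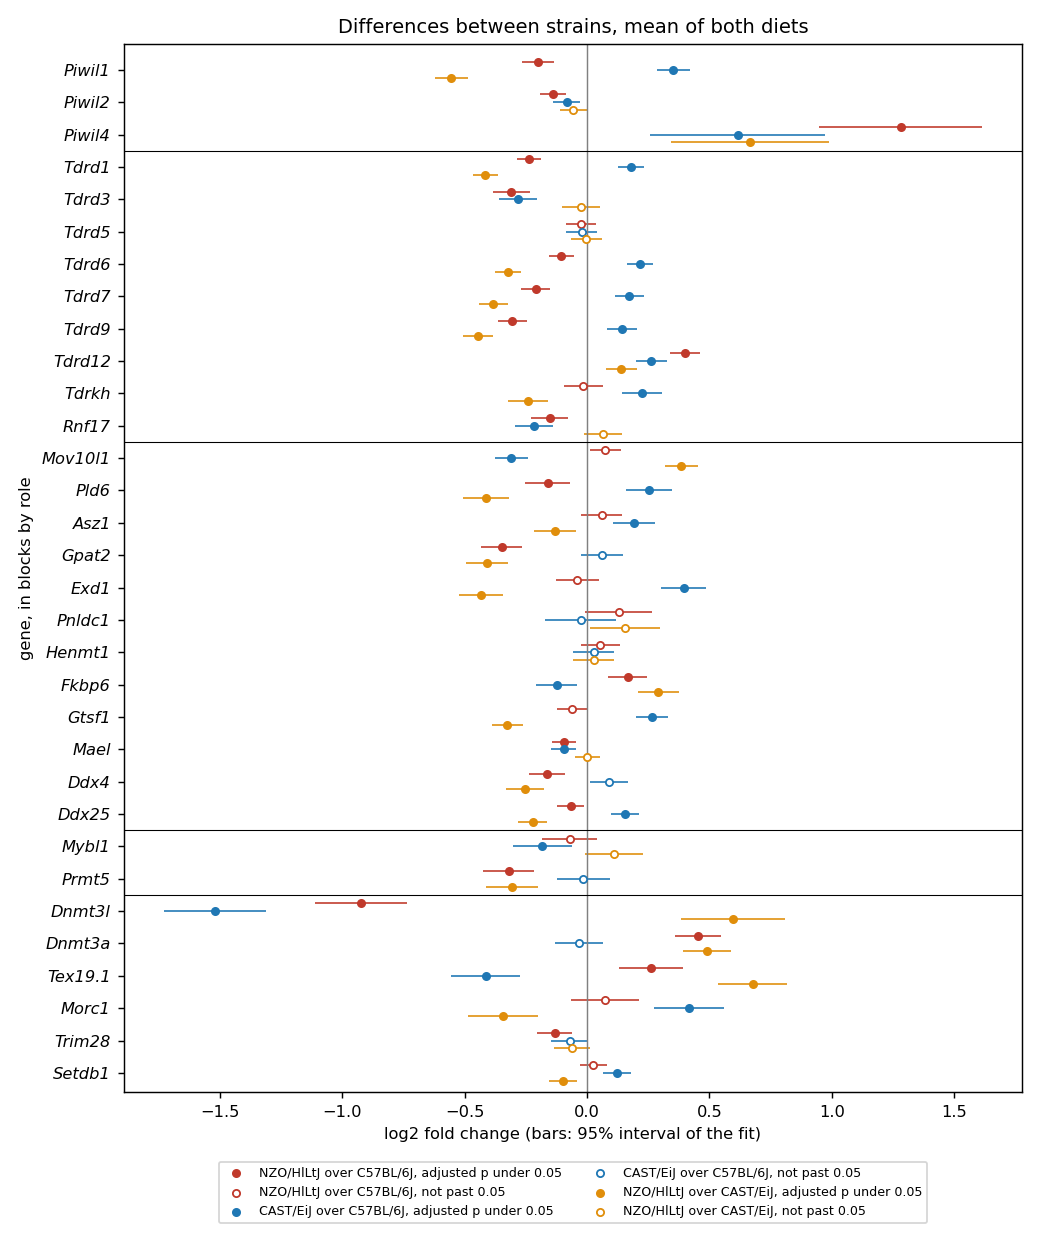
Log2 fold change of each gene between strains, averaged over diets, from the fit over 23 libraries; filled points have an adjusted p under 0.05 and bars are 95% intervals. Piwil4 at 1.28 and Dnmt3l at -1.52 lie farthest out.

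The activator and the methyltransferase upstream of the pathway differed in their pattern. Mybl1 averaged 98.8 ± 9.94 CPM in NZO/HlLtJ, 91.3 ± 6.50 in CAST/EiJ and 104 ± 8.94 in C57BL/6J, and fell by 0.18 in CAST/EiJ against C57BL/6J (adjusted p 0.00975, edgeR). That call was lost without CAST/EiJ 10% fat replicate 2 (adjusted p 0.0546) and with 10% fat libraries alone (adjusted p 0.166). NZO/HlLtJ over CAST/EiJ was 0.11 (adjusted p 0.102, edgeR), and 0.16 (adjusted p 0.0236) without the libraries that stood apart. Prmt5, which methylates the arginines that Tudor proteins bind, averaged 34.2 ± 2.32 CPM in NZO/HlLtJ, 42.2 ± 2.66 in CAST/EiJ and 42.6 ± 4.36 in C57BL/6J. NZO/HlLtJ fell by 0.32 against C57BL/6J (adjusted p 7.34e-06) and by 0.31 against CAST/EiJ (adjusted p 1.49e-05).

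Among the 6 silencing genes, NZO/HlLtJ had 2 higher and 2 lower than C57BL/6J, CAST/EiJ had 2 higher and 2 lower than C57BL/6J, and NZO/HlLtJ had 3 higher and 2 lower than CAST/EiJ, against 59.1%, 66.8% and 72.1% of all genes called. Dnmt3l (chr10:78041947-78063622), the cofactor that brings de novo DNA methylation to transposons in germ cells, had 3.15, 3.77 and 4.50 CPM as lowest, median and highest in NZO/HlLtJ, 2.23, 2.51 and 3.22 in CAST/EiJ, and 5.11, 7.59 and 8.59 in C57BL/6J. Every C57BL/6J library exceeded every library of the other strains, while NZO/HlLtJ and CAST/EiJ overlapped. The log2 fold change was -1.52 (SE 0.11, adjusted p 2.65e-13, edgeR) for CAST/EiJ over C57BL/6J, or 2.87-fold lower, and the only change of at least 2-fold among the 32 genes in that comparison, against 22.2% of all genes. It was -0.92 (SE 0.10, adjusted p 2.83e-09) for NZO/HlLtJ over C57BL/6J and 0.60 (SE 0.11, adjusted p 1.75e-05) for NZO/HlLtJ over CAST/EiJ.

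Dnmt3a (chr12:3806007-3914443), the DNA methyltransferase that Dnmt3l assists, followed another order. It had 29.2, 31.2 and 35.6 CPM in NZO/HlLtJ, 21.3, 22.3 and 25.1 in CAST/EiJ, and 20.5, 22.4 and 26.3 in C57BL/6J as lowest, median and highest. NZO/HlLtJ stood above both other strains without overlap, by 0.45 over C57BL/6J (SE 0.05, adjusted p 3.82e-09, edgeR) and 0.49 over CAST/EiJ (SE 0.05, adjusted p 9.45e-10), while CAST/EiJ and C57BL/6J did not pass (adjusted p 0.575).

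Tex19.1 (chr11:121146143-121148319), a germ cell factor that restrains retrotransposons, had 9.56, 10.0 and 11.3 CPM in NZO/HlLtJ, 5.52, 6.45 and 7.07 in CAST/EiJ, and 7.45, 8.46 and 10.1 in C57BL/6J as lowest, median and highest. CAST/EiJ lay below all libraries of the others, and the log2 fold change was 0.68 (SE 0.07, adjusted p 1.8e-09, edgeR) for NZO/HlLtJ over CAST/EiJ and -0.41 (SE 0.07, adjusted p 1.2e-05) for CAST/EiJ over C57BL/6J. Its rise of 0.26 in NZO/HlLtJ over C57BL/6J (adjusted p 0.00148) was 0.17 (adjusted p 0.186) with 10% fat libraries alone.

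Morc1 (chr16:48431237-48630905), an ATPase of germline transposon repression, had 5.70, 6.90 and 7.35 CPM in NZO/HlLtJ, 7.95, 8.45 and 9.87 in CAST/EiJ, and 5.86, 6.35 and 7.72 in C57BL/6J. CAST/EiJ stood above every other library, by 0.42 over C57BL/6J (SE 0.07, adjusted p 1.29e-05, edgeR), and NZO/HlLtJ against C57BL/6J did not pass (adjusted p 0.395). Trim28, the scaffold recruited by zinc finger proteins, averaged 376 ± 13.9 CPM in NZO/HlLtJ, 394 ± 22.3 in CAST/EiJ and 413 ± 25.0 in C57BL/6J, a fall of 0.13 in NZO/HlLtJ against C57BL/6J (adjusted p 0.00294). Setdb1, the histone methyltransferase that TRIM28 recruits, averaged 103 ± 2.74 CPM in NZO/HlLtJ, 109.8 ± 3.50 in CAST/EiJ and 101 ± 2.58 in C57BL/6J, a rise of 0.12 in CAST/EiJ over C57BL/6J (adjusted p 0.000531).

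Without regard to the test, libraries did not overlap for 10 of the 32 genes between NZO/HlLtJ and C57BL/6J, against 26.3% of all genes. The count was 16 between CAST/EiJ and C57BL/6J, against 39.1%, and 20 between NZO/HlLtJ and CAST/EiJ, against 43.9%. By mean level, NZO/HlLtJ was the lowest strain for 18 genes, against 30.1% of all genes, and below both others by the test for 10, against 15.9%. CAST/EiJ was the highest for 15, against 35.1%, and above both others by the test for 13, against 22.3%.

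Diet left no member past the threshold in any strain. With edgeR, 0 of 32 genes were called for 44% against 10% fat in NZO/HlLtJ, CAST/EiJ or C57BL/6J, nor with DESeq2 or limma, against 0.00437%, 0.0% and 0.00874% of all genes by edgeR. At an unadjusted p under 0.05 there was 1 gene in each strain, Dnmt3a in NZO/HlLtJ, Tdrkh in CAST/EiJ and Piwil4 in C57BL/6J, against 6.80% of all genes in NZO/HlLtJ, 4.11% in CAST/EiJ and 2.93% in C57BL/6J. The median log2 fold change without sign was 0.03 in NZO/HlLtJ, 0.04 in CAST/EiJ and 0.02 in C57BL/6J, against 0.09, 0.08 and 0.07 over all genes. All genes include many with low counts, whereas 27 of the 32 had a mean of at least 20 CPM. Diet medians of genes at that level were not taken, so these values do not show a smaller response than in similarly abundant genes. A missed threshold does not show that the diets act alike, and the intervals in the plot of diet differences give the range for each gene.

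In NZO/HlLtJ, Dnmt3a had 33.1, 34.0, 35.6 and 31.5 CPM on 44% fat, against 30.0, 30.9, 29.8 and 29.2 CPM on 10% fat. The diet groups did not overlap, and the log2 fold change was 0.16 (SE 0.07, unadjusted p 0.021, adjusted p 0.723, edgeR). The next smallest p in that strain were those of Tdrd7, with a log2 fold change of -0.08 (unadjusted p 0.0673, edgeR), and Prmt5, with -0.13 (unadjusted p 0.0875). Piwil2 also did not overlap in NZO/HlLtJ, so 2 genes did not, against 3.58% of all genes.

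In CAST/EiJ, Tdrkh had 62.7, 64.3, 61.0 and 65.5 CPM on 44% fat, against 69.1, 66.9 and 74.1 CPM on 10% fat. These did not overlap either, and the log2 fold change was -0.14 (SE 0.06, unadjusted p 0.026, adjusted p 1.00, edgeR). Tdrd12 was the other gene without overlap, against 5.29% of all genes. Asz1 with -0.10 (unadjusted p 0.146, edgeR) and Pnldc1 with -0.15 (unadjusted p 0.169) came next.

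In C57BL/6J, Piwil4 had 0.329, 0.585, 0.383 and 0.377 CPM on 44% fat, against 0.811, 0.536, 0.489 and 0.873 CPM on 10% fat. Of the 44% fat libraries 1 exceeded 2 of the 10% fat libraries, so the groups overlapped, and the log2 fold change was -0.67 (SE 0.27, unadjusted p 0.0174, adjusted p 1.00, edgeR). Pnldc1 with 0.18 (unadjusted p 0.0944, edgeR) and Tex19.1 with -0.16 (unadjusted p 0.111) were next, and 0 genes lacked overlap, against 2.09% of all genes.

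Averaged over strains, 0 genes were called and 0 had an unadjusted p under 0.05 with edgeR, against 0.0% of all genes called. The smallest unadjusted p were those of Tdrkh, 0.0766 with a log2 fold change of -0.06, Piwil4, 0.0993 with -0.24, and Prmt5, 0.233 with -0.05. The test for a diet effect that differs between strains called 0 of 32 genes, against 0.0% of all genes, and its smallest p was that of Piwil4 (unadjusted p 0.0707, adjusted p 0.943, edgeR), followed by Pnldc1 (unadjusted p 0.103) and Dnmt3a (unadjusted p 0.112); 0 genes had an unadjusted p under 0.05. Between pairs of strains, the Piwil4 diet effect was 0.82 higher in NZO/HlLtJ than in C57BL/6J (SE 0.34, unadjusted p 0.0226, adjusted p 1.00), the Pnldc1 effect 0.33 lower in CAST/EiJ than in C57BL/6J (unadjusted p 0.0352). The Dnmt3a effect was 0.21 higher (unadjusted p 0.0453, edgeR) and the Tdrd7 effect 0.13 lower (unadjusted p 0.040) in NZO/HlLtJ than in CAST/EiJ.

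**Figure D5:**
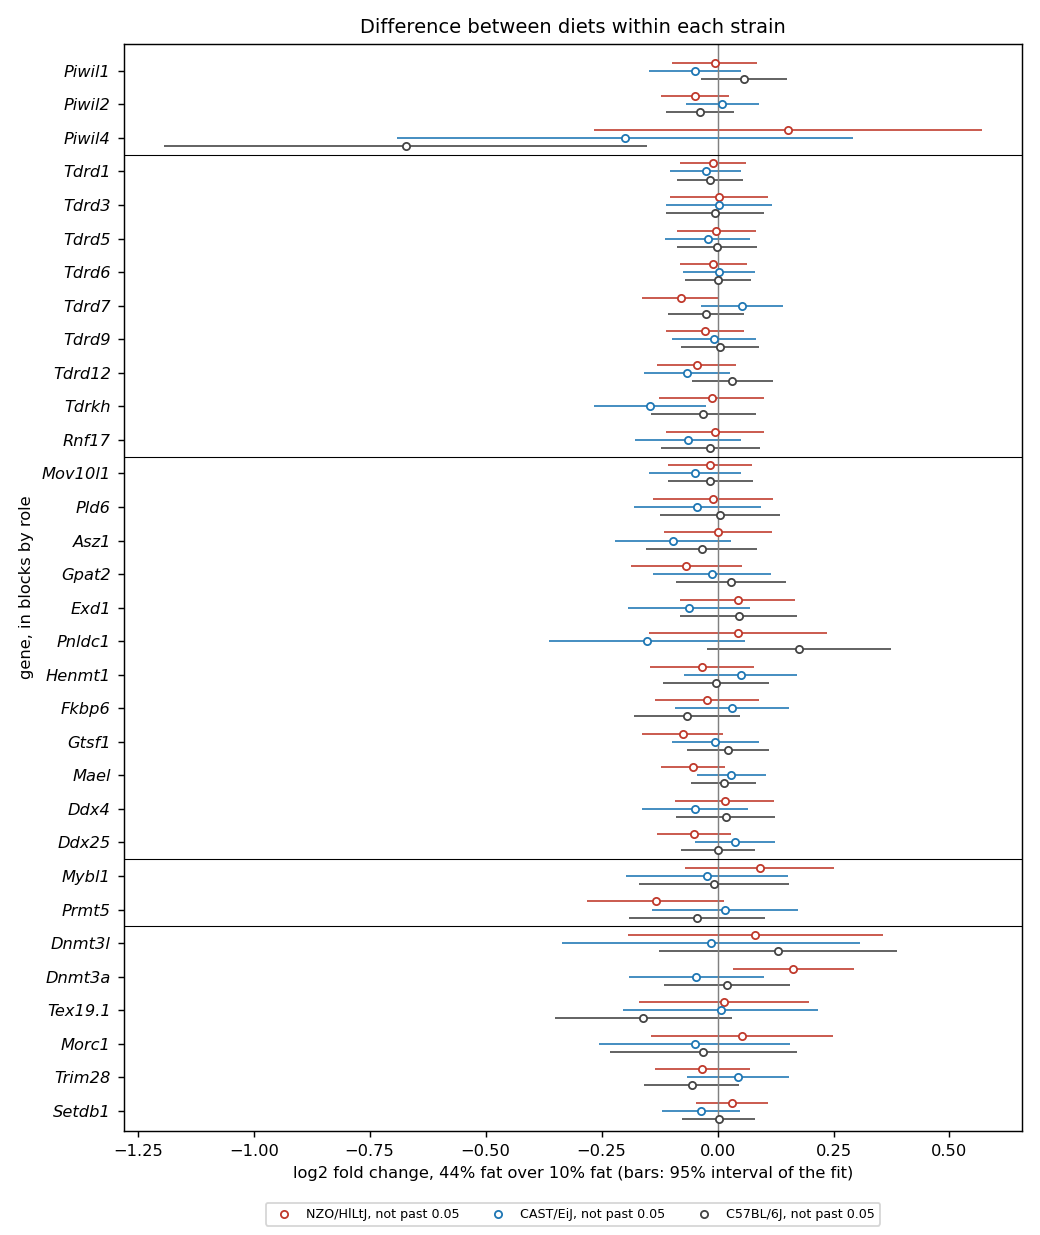
Log2 fold change of 44% fat over 10% fat for each gene within each strain; open points did not pass an adjusted p of 0.05 and bars are 95% intervals. All points are open; Piwil4 in C57BL/6J, at -0.67, lies farthest from 0 and has the widest bars.

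A list of 40 further genes around the pathway gave 38 tested genes. Between NZO/HlLtJ and C57BL/6J, 12 rose and 9 fell, against 59.1% of all genes called in either direction. The median log2 fold change of the list was -0.00. The largest were Mov10, a helicase that restrains retroelements, at 0.58 (35.5 ± 1.80 CPM in NZO/HlLtJ, 23.8 ± 0.838 in C57BL/6J), Ehmt1, a histone methyltransferase, at 0.54, and Dicer1, the small RNA nuclease, at 0.49. Falling most were Ddx20 at -0.50 (274 ± 15.6 CPM in NZO/HlLtJ, 388 ± 9.30 in C57BL/6J), Suv39h2, a germ cell histone methyltransferase, at -0.46, and Kif17 at -0.25.

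Between CAST/EiJ and C57BL/6J, 14 of the 38 rose and 10 fell, against 66.8% of all genes called in either direction. Adad2, a germ cell RNA-binding protein, averaged 36.6 ± 1.97 CPM in CAST/EiJ and 18.3 ± 0.592 in C57BL/6J, a log2 fold change of 1.00 (SE 0.05, adjusted p 1.68e-17, edgeR). Dnmt3b, a de novo DNA methyltransferase, rose by 0.53 and Tex19.2, the paralog of Tex19.1, by 0.45, while Suv39h2, Ago4 and Kif17 fell by 0.41, 0.39 and 0.34. Tex19.2 and Tex19.1 differed between these strains in opposite directions, though reads shared by such paralogs could be split in counting.

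Between NZO/HlLtJ and CAST/EiJ, 12 of the 38 rose and 8 fell, against 72.1% of all genes called in either direction. Snd1, a Tudor domain nuclease, rose by 0.65, Dicer1 by 0.46 and Hells, a chromatin remodeller of DNA methylation, by 0.43, while Adad2, Tex19.2 and Ddx20 fell by 1.16, 0.44 and 0.39. No gene of the list was called for diet in any strain with edgeR, with 3 of 38 at an unadjusted p under 0.05 in NZO/HlLtJ, 0 in CAST/EiJ and 0 in C57BL/6J. Of all genes, 6.8%, 4.11% and 2.93% had such a p in these strains.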

How the data were processed

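Testis polyA RNA was read as 100 bp pairs, per the labels. The authors deposited estimated counts per gene, of which 23.1% were not whole (tolerance 1e-06), and log2 values from a variance-stabilising transformation between 7.67 and 19.3. The deposited annotation gives gene coordinates (unit other, in megabases). The submitters' processing notes name GRCm38 and DESeq2; the aligner, counter, annotation release and treatment of strain variants remain not given in the sources used here, and their part in strain differences was not tested. Every gene was above 0 in at least 12 of 23 libraries, and 0 rows were spike-ins. Deposited columns without a sample numbered 0.

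Rounding made the estimated counts whole. Genes passing filterByExpr on the 6 groups (22873) entered the quasi-likelihood test of edgeR 4.0.16 (R 4.3.3), scaled by TMM, with a single mean for each group, all 23 libraries and Benjamini-Hochberg adjustment, at a threshold of 0.05 without a fold limit. CPM are TMM-scaled; the SE of a log2 fold change is its size divided by the root of F. Exon lengths came from GENCODE M21, in which 99.3% of genes were matched; 25 of the 32 genes had the same coordinates there. Library totals (21.9 to 78.7 M) set the precision; 33 replicate pairs had a chi-square over degrees of freedom of 3.34 to 17.6, so replicates differed beyond counting error. DESeq2 1.42.0 and limma 3.58.1 on the deposited log2 values, size factors, no filter, the run of title numbers, single-diet fits, a 1.5-fold limit and omission of each library served as alternatives. The edgeR procedure was also run on simulated data in which most genes had the same mean in every group. In the present data most genes were called between strains, so that run does not test the calls made here. In strain comparisons up to 6 genes per direction by size got group values, and in diet comparisons the 3 smallest p; other members are named with their values too. Members and lists were chosen with earlier results of these data known.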

Additional observations from a re-analysis of the deposited data

Results flagged for a closer look

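Within groups of 4 libraries, 5 of 160 combinations of gene and group had a library far from its 3 companions by Dixon's test, and chance alone flags about 1 in 20. Prmt5 had 46.9 CPM in C57BL/6J 44% fat replicate 4, against 40.3 to 40.6 CPM in the others. Of these, 2 were in C57BL/6J 10% fat replicate 4, with Tdrd9 low at 169 CPM against 185 to 188 CPM, and Dnmt3a high at 25.5 CPM against at most 22.4 CPM. Morc1 had 7.72 CPM in C57BL/6J 10% fat replicate 1, against 5.95 to 6.21 CPM. Tdrd3 had 46.7 CPM in NZO/HlLtJ 10% fat replicate 2, against 42.4 to 42.7 CPM.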

How the results depend on the processing

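The 1.5-fold limit, given below, is left out of the following counts of calls kept or lost. Of 68 calls of a gene between strains, 52 held under every other alternative run, 16 were lost under at least 1 and 0 reversed. With 10% fat libraries alone 13 were lost, and with 44% fat libraries alone 5, and these fits hold fewer samples. Of 28 results between strains that were not called, 10 were called under at least 1 alternative, 5 of them without the libraries that stood apart. DESeq2 size factors, DESeq2 and limma each called Piwil2 and Trim28 between NZO/HlLtJ and CAST/EiJ. Each also called Gtsf1 between NZO/HlLtJ and C57BL/6J. Ddx25 between NZO/HlLtJ and C57BL/6J was lost on leaving out any of 13 libraries (adjusted p 0.0504 to 0.106): NZO/HlLtJ 44% fat replicates 2, 3 and 4 and 10% fat replicates 1 and 2, CAST/EiJ 10% fat replicate 1, or C57BL/6J 44% fat replicates 1 to 4 and 10% fat replicates 1 to 3. Mybl1 between CAST/EiJ and C57BL/6J was lost without CAST/EiJ 10% fat replicate 2 (adjusted p 0.0546). A 1.5-fold limit left 2 of the 32 genes called between NZO/HlLtJ and C57BL/6J, 2 between CAST/EiJ and C57BL/6J and 3 between NZO/HlLtJ and CAST/EiJ. Leaving out 1 library gave 20 to 23, 24 to 26 and 23 to 24 of the 32 genes, and 13027 to 13610, 14862 to 15374 and 16105 to 16534 of all genes; with 10% fat alone, 8826 of all genes were called between NZO/HlLtJ and C57BL/6J. For diet, 0 of the 32 genes were called under every alternative. Of all genes, diet in NZO/HlLtJ called 7 with DESeq2, 2 without the filter, 0 with the run of title numbers, 4 without the libraries that stood apart and 0 to 5 on leaving out 1 library. Diet in CAST/EiJ called 3 with DESeq2, 1 with limma and 0 to 3 on leaving out 1; diet in C57BL/6J called 0 without the libraries that stood apart and 0 to 2 on leaving out 1. Diet averaged over strains called 6 with DESeq2 and 0 to 2 on leaving out 1, and diet by strain 8 with DESeq2, 1 without the libraries that stood apart and 0 to 1 on leaving out 1. The cause was not tested. Piwil4, with under 2 CPM, limits what depth can show. No paired analysis was possible because the labels carry no replicate numbers; the numbers used here follow accession order.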
